A study of Mus musculus with 8 samples.

Results

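Glutathione S-transferases were examined in the sciatic nerves of Nae1 cKO mice. The 10 members were Gsta1, Gsta2, Gsta3, Gsta4, Gstm1, Gstm2, Gstm5, Gstp1, Gstt1 and Mgst1. They were taken by gene symbol from gene-level tables of 53090 rows per nerve, in which they filled 11 rows because Gstp1 was listed under 2 identifiers. Total RNA was sequenced from whole sciatic nerves at P7 (postnatal day 7) after depletion of ribosomal RNA, with stranded libraries. The Nae1 cKO group held 4 nerves (K2, L1, L5 and L8) from Cre-positive Nae1 f/f mice, and the control group, labelled WT, held 4 nerves (K1, L3, L4 and L9). The controls were littermates without Cre that carried 1 or 2 floxed Nae1 alleles, so neither group was free of the floxed allele. The recombinase is expressed in Schwann cells, where it removes exon 4 of Nae1, and leaves the gene intact in the other cells of the nerve. The labels do not say what the letters K and L stand for, or whether the nerves of a group came from separate litters, so p-values measure the spread between these nerves.

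Glutathione S-transferases join glutathione to electrophilic compounds, which makes them more soluble and ready for export. The cytosolic enzymes fall into classes named alpha (Gsta), mu (Gstm), pi (Gstp) and theta (Gstt), and Mgst1 belongs to a separate family of membrane-bound enzymes. Many of these genes are known targets of NRF2, a transcription factor that binds antioxidant response elements as a pair with a small MAF protein. NRF2 is kept low by KEAP1 and a cullin-RING ubiquitin ligase built on CUL3 and RBX1, and cullins work when NEDD8, a ubiquitin-like protein, is attached to them. Nae1 encodes a subunit of the enzyme that starts this attachment. This is background and was not measured here.

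Sequences before the start of transcription were inspected for 2 short motifs in 250-base windows. They were TGACNNNGC, the core of the antioxidant response element, and TGANTCA, the form of an AP-1 element, each searched on both strands. RefSeq start sites on GRCm38.p6 matched 9 of the 10 members, all but Gsta4. The 9 genes had 11 windows, since Gstm1 and Mgst1 have 2 starts each. TGACNNNGC occurred in 3 of the 11 windows, each of a different gene, against 10.2% of 32851 windows of the same length genome-wide. TGANTCA occurred in 2 of the 11, against 6.75% of windows. The core stood at position -121 before Gsta3, at position -42 before Gstm5 and, on the opposite strand, at position -56 before the first start of Mgst1. TGANTCA stood at position -74 before Gstp1 and at position -176 before Gstm5. A match is a description of the letters and not evidence of binding. The windows of Gstm1, Gstm2, Gstt1, Gsta1 and Gsta2 held neither motif. The windows with a match are given because they include the members with the strongest increase and a member, Gstm5, that did not pass the test. Each is read from 5′ to 3′ on the strand of the gene, in lower case with motif matches in capitals.
Gsta3, chr1:21240335-21240584, plus strand: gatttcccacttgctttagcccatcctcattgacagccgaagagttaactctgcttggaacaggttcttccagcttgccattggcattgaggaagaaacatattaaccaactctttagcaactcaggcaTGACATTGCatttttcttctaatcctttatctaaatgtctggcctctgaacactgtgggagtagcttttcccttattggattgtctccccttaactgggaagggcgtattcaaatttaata
Mgst1, chr6:138140277-138140526, plus strand: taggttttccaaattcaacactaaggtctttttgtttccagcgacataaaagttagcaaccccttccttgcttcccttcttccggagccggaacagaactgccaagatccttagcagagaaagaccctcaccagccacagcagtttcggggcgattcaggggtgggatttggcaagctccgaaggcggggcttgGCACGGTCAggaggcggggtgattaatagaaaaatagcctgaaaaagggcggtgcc
Gstp1, chr19:4037913-4038162, minus strand: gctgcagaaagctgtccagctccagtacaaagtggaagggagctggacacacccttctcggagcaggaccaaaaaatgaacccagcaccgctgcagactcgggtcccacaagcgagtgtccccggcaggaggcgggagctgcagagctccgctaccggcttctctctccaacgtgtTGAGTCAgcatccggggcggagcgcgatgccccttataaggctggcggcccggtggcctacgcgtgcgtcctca
Gstm5, chr3:107895604-107895853, plus strand: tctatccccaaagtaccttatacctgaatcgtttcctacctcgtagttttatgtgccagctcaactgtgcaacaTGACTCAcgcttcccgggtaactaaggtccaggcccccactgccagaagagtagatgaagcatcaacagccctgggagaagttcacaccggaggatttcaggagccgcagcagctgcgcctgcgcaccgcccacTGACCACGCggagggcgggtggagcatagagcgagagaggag

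The libraries and the deletion were checked first. Total expected counts were between 12962798 and 13855366 in Nae1 cKO nerves and between 13508752 and 14766770 in controls. Nae1 was lower in Nae1 cKO nerves, at 57.1, 57.2, 48.9 and 43.8 CPM (counts scaled to 1000000 per library, after TMM scaling) in K2, L1, L5 and L8, against 89.8, 81.3, 77.7 and 82.7 CPM in controls K1, L3, L4 and L9. In edgeR's quasi-likelihood test, adjusted over all genes, this gave -0.68 on the log2 scale (SE 0.097, adjusted p = 0.000277). The exact permutation test of mean CPM gave p = 0.0286, the smallest possible with 4 against 4 nerves (two-sided). The Schwann cell markers S100b and Erbb3 were detected in every nerve, at 261 ± 33.9 and 608 ± 53.5 CPM in Nae1 cKO nerves and at 276 ± 26.9 and 640 ± 11.6 CPM in controls (SD, n = 4 each). Sox10, a transcription factor of the lineage, averaged 49.4 ± 8.30 CPM in Nae1 cKO nerves and 82.4 ± 19.0 CPM in controls (SD, n = 4 each; adjusted p = 0.00827, edgeR). Of 15 macrophage markers, 11 rose, and their summed level was 465 to 599 CPM in Nae1 cKO nerves and 268 to 303 CPM in controls. Of 10 fibroblast markers 4 rose, Pdgfra, Col3a1, Dcn and Lum, and 6 did not pass. The sums were 17100 to 18900 CPM in Nae1 cKO nerves and 13700 to 16800 CPM in controls. Col3a1 was the largest part of these sums, with means of 14200 CPM in Nae1 cKO nerves and 11990 CPM in controls. Its log2 fold change was 0.24 (adjusted p = 0.0457, edgeR). Of 10 endothelial markers 4 fell, Pecam1, Kdr, Egfl7 and Vwf, and the sums were 232 to 280 CPM in Nae1 cKO nerves and 307 to 378 CPM in controls. Skeletal muscle markers summed to 65.5 to 182 CPM in Nae1 cKO nerves, against 1320 CPM in control K1, 2160 CPM in control L4, and 370 and 134 CPM in controls L3 and L9. In whole nerve, a change in the number of cells of a type cannot be told apart from a change in RNA per cell.

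Of the 10 transferases, 8 passed the filter on low counts, 6 rose in Nae1 cKO nerves and none fell. The 6 were Gsta3, Mgst1, Gstm1, Gstp1, Gsta4 and Gstm2, and all but Gstm2 rose by more than 2-fold. Across all 17090 genes tested, 14.1% rose, 12.3% fell, and 4.25% rose by more than 2-fold. In these 6 genes each Nae1 cKO nerve lay above each control, as it did for 14.9% of the genes tested. The median log2 fold change of the 8 tested members was 1.62, and that of all genes tested was 0.0066. For the count of 0 that fell, edgeR's test also gave 0 at an unadjusted p under 0.05, and DESeq2 and limma-voom gave 0.

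Gsta3 had the largest fold change of the family. It encodes an alpha-class enzyme, known in mice for the conjugation of aflatoxin epoxide in the liver. Its level was 54.9, 17.3, 23.0 and 39.9 CPM in Nae1 cKO nerves K2, L1, L5 and L8, against 2.63, 2.25, 2.94 and 3.10 CPM in controls K1, L3, L4 and L9. The controls were close to each other, while the highest Nae1 cKO nerve was 3.16 times the lowest, and the groups did not overlap. Gsta3 was 12.4-fold higher in Nae1 cKO nerves (log2 fold change 3.63, SE 0.40, adjusted p = 0.000271, edgeR). The change in the 6 nerves with the letter L was 3.27 on the log2 scale.

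Gsta4, an alpha-class enzyme with high activity toward 4-hydroxynonenal, a product of lipid peroxidation, rose less. It was at 21.6, 9.20, 12.2 and 13.4 CPM in Nae1 cKO nerves K2, L1, L5 and L8, against 4.89, 5.14, 3.73 and 4.93 CPM in controls K1, L3, L4 and L9. Nerve K2 stood above the other Nae1 cKO nerves, and the lowest of these, L1, was still above every control. The rise was 3.01-fold (log2 fold change 1.59, SE 0.24, adjusted p = 0.000513, edgeR), and 1.30 on the log2 scale without K2.

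The remaining alpha-class members, Gsta1 and Gsta2, were close to the limit of detection and did not pass the filter. Gsta1 had expected counts of 2.4, 0.21, 4 and 3.99 in Nae1 cKO nerves K2, L1, L5 and L8, against 5.45, 3.29, 17.9 and 18 in controls K1, L3, L4 and L9. Controls L4 and L9 held most of the Gsta1 counts, and the groups overlapped. Gsta2 had 3, 1, 0 and 0 in the Nae1 cKO nerves, against 1.55, 4, 4.74 and 2 in the controls, taken in the same order of nerves. The exact permutation test of the difference in mean CPM gave p = 0.0857 for each (two-sided, 4 against 4 nerves, smallest possible p 0.0286). Neither direction is clear at this depth, and when no filter was applied Gsta1 had a log2 fold change of -2.18 (adjusted p = 0.0296, edgeR) and Gsta2 one of -1.64 (adjusted p = 0.301). This pair lies next to Gsta4 on chromosome 9, with Gsta4 at 78182774 to 78209349, Gsta1 at 78230656 to 78242684 and Gsta2 at 78331018 to 78355788 (GRCm38, GENCODE vM21). Gsta3 lies apart, on chromosome 1 at 21240589 to 21265661.

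**Figure D1:**
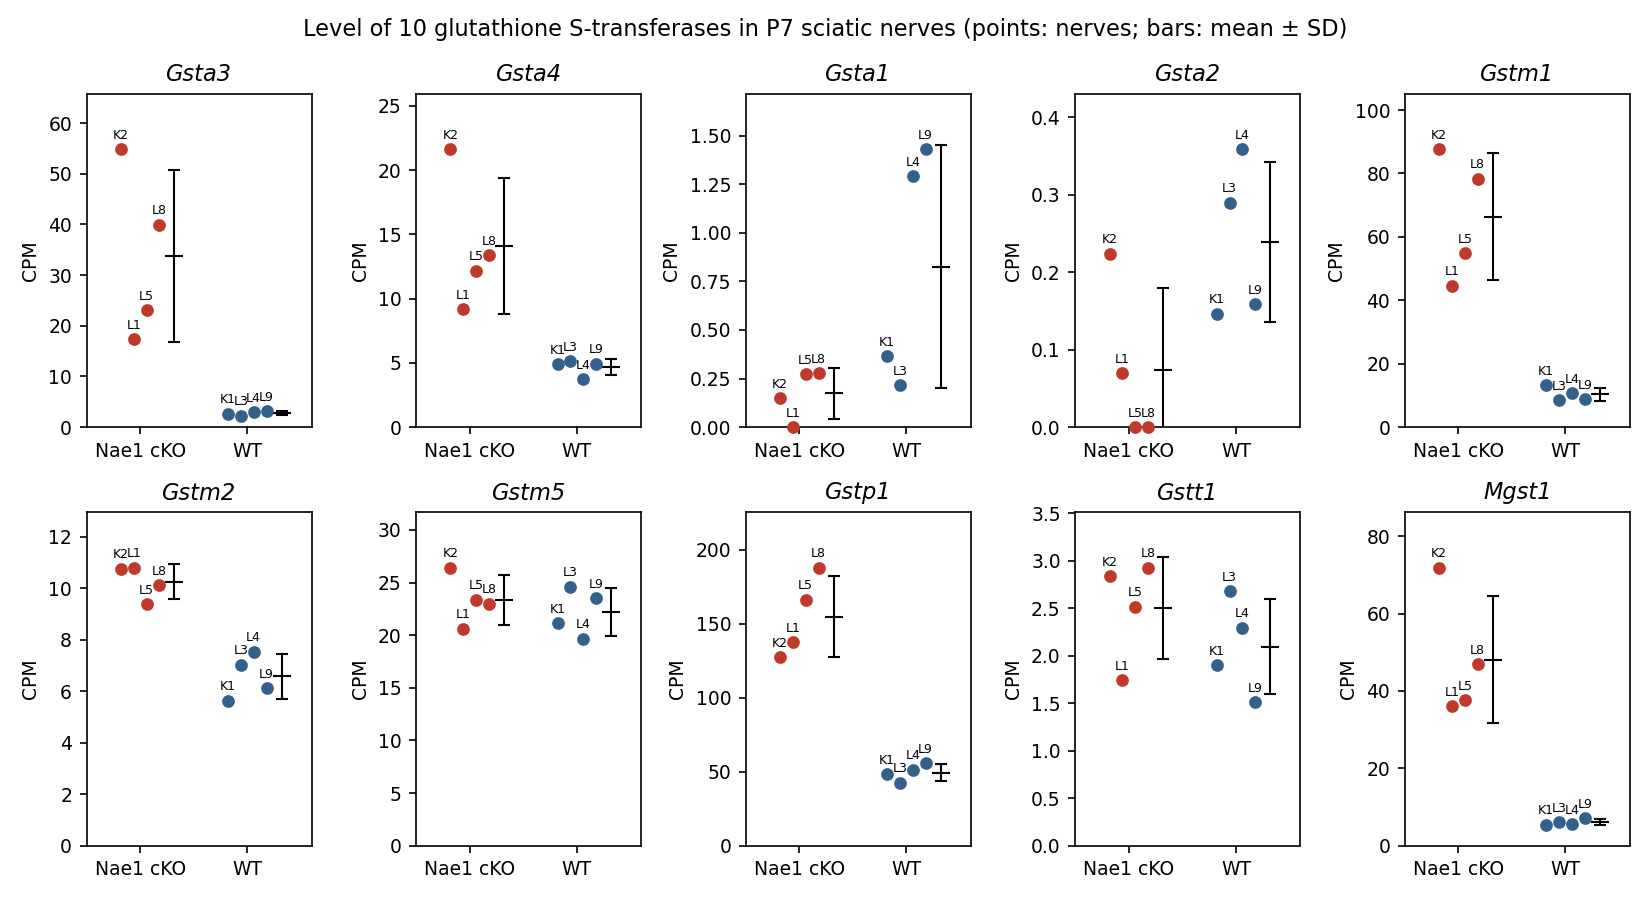
Level of each of the 10 genes in CPM, with Nae1 cKO nerves at left and controls (WT) at right. Points are nerves, named beside them, and bars are the mean ± SD (n = 4 each). In 6 genes (Gsta3, Gsta4, Gstm1, Gstm2, Gstp1 and Mgst1) every Nae1 cKO nerve lies above every control.

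Mu-class genes differed among themselves. Gstm1, an abundant mu-class enzyme of the liver, was at 87.7, 44.7, 54.9 and 78.4 CPM in Nae1 cKO nerves K2, L1, L5 and L8, against 13.3, 8.54, 10.6 and 8.82 CPM in controls K1, L3, L4 and L9. Each Nae1 cKO nerve was more than 3 times the highest control. The rise was 6.42-fold (log2 fold change 2.68, SE 0.24, adjusted p = 3.23e-05, edgeR).

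Gstm2 rose by a smaller amount. It was at 10.7, 10.8, 9.38 and 10.1 CPM in Nae1 cKO nerves K2, L1, L5 and L8, against 5.63, 7.02, 7.53 and 6.12 CPM in controls K1, L3, L4 and L9. The groups did not overlap, and the highest Nae1 cKO nerve was 1.15 times the lowest. The rise was 1.56-fold (log2 fold change 0.64, SE 0.14, adjusted p = 0.00412, edgeR). On the log2(TPM + 1) scale the change did not pass (0.65, adjusted p = 0.0854, limma).

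Gstm5 did not pass the test. It was at 26.4, 20.6, 23.4 and 23.0 CPM in Nae1 cKO nerves K2, L1, L5 and L8, against 21.1, 24.6, 19.7 and 23.5 CPM in controls K1, L3, L4 and L9. The 2 groups overlapped over most of their range, with means of 23.4 ± 2.38 and 22.2 ± 2.25 CPM in Nae1 cKO nerves and controls (SD, n = 4 each). The test gave a log2 fold change of 0.072 (SE 0.11, adjusted p = 0.679, edgeR). Its promoter window is the 1 printed above that holds both motifs.

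The mu-class genes lie together on chromosome 3, in the order Gstm5 (107895821 to 107898686), Gstm7, Gstm6, Gstm3, Gstm2 (107981702 to 107986453), Gstm1 (108012255 to 108017973) and Gstm4, with Gstm5 alone on the plus strand. Of the other 4 genes of this cluster, Gstm6 rose, at 1.55 ± 0.627 CPM in Nae1 cKO nerves and 0.512 ± 0.236 CPM in controls (SD, n = 4 each; log2 fold change 1.56, SE 0.40, adjusted p = 0.0116, edgeR). Gstm4 and Gstm7 did not pass, with log2 fold changes of 0.16 (adjusted p = 0.651, edgeR) and -0.12 (adjusted p = 0.785, edgeR). Gstm3 was under the filter. Without controls K1 and L4 the call of Gstm6 was lost (adjusted p = 0.103, edgeR). The genes of the cluster that rose, Gstm1, Gstm2 and Gstm6, thus lie among others that did not pass.

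Gstp1, the pi-class enzyme and the most abundant member, rose in every Nae1 cKO nerve. The values of its 2 rows were identical in each nerve, and they are summed here. The sum was 127, 138, 166 and 188 CPM in Nae1 cKO nerves K2, L1, L5 and L8, against 48.4, 42.6, 51.2 and 55.6 CPM in controls K1, L3, L4 and L9. The lowest Nae1 cKO nerve was more than 2 times the highest control. The rise was 3.13-fold (log2 fold change 1.65, SE 0.13, adjusted p = 3.25e-06, edgeR), the smallest adjusted p of the family. Its neighbour Gstp2, also listed under 2 identifiers with equal values, averaged 9.48 ± 2.26 CPM in Nae1 cKO nerves and 2.37 ± 0.356 CPM in controls over both rows (SD, n = 4 each; log2 fold change 1.99, SE 0.23, adjusted p = 5.48e-05, edgeR). The expected counts of Gstp2 were whole in 0 of the 8 nerves, so its reads were divided with other rows. How much of its rise came from reads shared with Gstp1 was not tested. Gstp1 lies on chromosome 19 at 4035407 to 4037985, and Gstp2 shares with it a promoter match to TGANTCA, at position -89. Among the other transferases, TGANTCA also stood at position -52 before Mgst2, which was under the filter. TGACNNNGC stood at position -129 before a start of Gstm7, which did not pass.

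The theta-class member Gstt1, known for its activity on small halogenated compounds, did not pass. It was at 2.84, 1.74, 2.51 and 2.93 CPM in Nae1 cKO nerves K2, L1, L5 and L8, against 1.90, 2.68, 2.30 and 1.51 CPM in controls K1, L3, L4 and L9. The groups overlapped, and edgeR gave a log2 fold change of 0.25 (SE 0.25, adjusted p = 0.50). Its neighbours on chromosome 10, Gstt2 and Gstt3, also did not pass, with log2 fold changes of 0.27 (adjusted p = 0.379, edgeR) and 0.35 (adjusted p = 0.423, edgeR), and Gstt4 was at 0 in every nerve.

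Mgst1, a membrane-bound enzyme of the endoplasmic reticulum and outer mitochondrial membrane, had the second largest fold change. It was at 71.9, 36.1, 37.7 and 46.8 CPM in Nae1 cKO nerves K2, L1, L5 and L8, against 5.41, 6.01, 5.60 and 7.15 CPM in controls K1, L3, L4 and L9. Each Nae1 cKO nerve was at least 5 times the highest control. Mgst1 was 7.96-fold higher in Nae1 cKO nerves (log2 fold change 2.99, SE 0.23, adjusted p = 6.97e-06, edgeR). The gene lies on chromosome 6 at 138140316 to 138156755, and its relative Mgst3 went the other way, at 20.2 ± 5.92 CPM in Nae1 cKO nerves and 31.4 ± 6.02 CPM in controls (SD, n = 4 each; log2 fold change -0.64, SE 0.19, adjusted p = 0.0332, edgeR). The call of Mgst3 was lost in 6 of the 8 fits that left out 1 nerve, those without Nae1 cKO nerve L1, L5 or L8 or control K1, L3 or L9 (adjusted p 0.0506 to 0.0926).

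The rise was not the same in every nerve. In CPM, K2 was the highest Nae1 cKO nerve for 4 of the 6 genes that rose (Gsta3, Gsta4, Gstm1 and Mgst1). L1 was the lowest for the same 4. Gstp1 was arranged otherwise, with L8 highest and K2 lowest. In TPM the highest was L8 for Gsta3 (27.7) and Gstm1 (54.7), L1 for Mgst1 (53.6) and K2 for Gsta4 (12.7). The lowest in TPM was L5 for Mgst1 (42.5) and L1 for Gsta3, Gsta4 and Gstm1. In CPM, K2 also stood apart from the other Nae1 cKO nerves in some marker sums. Its summed macrophage markers were at 599 CPM, against 465 to 481 CPM in the others, and its perineurial markers at 303 CPM, against 167 to 202 CPM. Its summed fibroblast markers, at 17200 CPM, lay within the 17100 to 18900 CPM of the others. Single fibroblast markers went both ways. Pdgfra, at 418 CPM against 242 to 252 CPM, and Dcn, at 965 CPM, were highest in K2, and Lum, at 278 CPM, was lowest. In TPM, Pdgfra was at 36.7 in K2, within the 34.0 to 42.3 of the other Nae1 cKO nerves. The marker sums were taken in CPM only. The part of these cell types in the order of nerves was not tested. Nor was that of macrophages, fibroblasts and endothelium in the difference between genotypes. Without K2 the log2 fold change was 3.29 for Gsta3, 2.73 for Mgst1 and 2.51 for Gstm1, and all 6 genes passed without any 1 nerve. Controls K1 and L4 had the highest sums of muscle markers. When both were left out all 6 also passed, with a highest adjusted p of 0.0324, that of Gstm2.

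Levels were set beside each other per transcript length, as TPM. Summed over the 10 genes, the level was 254, 363, 349 and 420 TPM in Nae1 cKO nerves K2, L1, L5 and L8, against 82.1, 88.0, 106 and 113 TPM in controls K1, L3, L4 and L9. The sum was higher in each Nae1 cKO nerve than in any control. In Nae1 cKO nerves the order by mean TPM was Gstp1 at 190 ± 60.5, Mgst1 at 50.6 ± 5.37, Gstm1 at 41.8 ± 8.62, Gstm5 at 21.3 ± 3.54, Gsta3 at 20.1 ± 6.92, Gsta4 at 11.7 ± 1.09, Gstm2 at 8.46 ± 2.24, Gstt1 at 2.01 ± 0.422, Gsta1 at 0.21 ± 0.164 and Gsta2 at 0.147 ± 0.239 TPM (SD, n = 4). Neighbours in this order overlapped between nerves for Mgst1 and Gstm1, Gstm5 and Gsta3, Gsta4 and Gstm2, and Gsta1 and Gsta2.

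In controls the order was Gstp1 at 54.1 ± 10.3, Gstm5 at 18.7 ± 2.65, Gstm1 at 6.13 ± 0.970, Mgst1 at 5.87 ± 1.53, Gstm2 at 4.96 ± 0.976, Gsta4 at 3.72 ± 0.488, Gstt1 at 1.55 ± 0.395, Gsta3 at 1.08 ± 0.268, Gsta1 at 0.99 ± 0.781 and Gsta2 at 0.292 ± 0.0699 TPM (SD, n = 4). The levels of Gstm1, Mgst1, Gstm2 and Gsta4 overlapped from each to the next, as did those of Gstt1, Gsta3, Gsta1 and Gsta2. Gstp1 made up 53.8 ± 9.24% of the summed TPM in Nae1 cKO nerves and 55.4 ± 2.81% in controls (SD, n = 4 each). The share of Gstm5 was 6.20 ± 0.618% in Nae1 cKO nerves and 19.3 ± 2.57% in controls, and the share of Mgst1 was 15.1 ± 4.10% in Nae1 cKO nerves and 5.95 ± 0.692% in controls. The shares of Mgst1, Gstm1 and Gsta3 were higher in each Nae1 cKO nerve than in any control, and those of Gstm5, Gstm2, Gstt1, Gsta1 and Gsta2 were lower. Gstm2 thus took a smaller share of the sum although its level in CPM rose. In TPM its groups overlapped, with Nae1 cKO nerve K2 at 5.87 and control L4 at 6.12 TPM. The shares of Gstp1 and Gsta4 overlapped. These shares sum to 100%, so they are not independent.

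**Figure D2:**
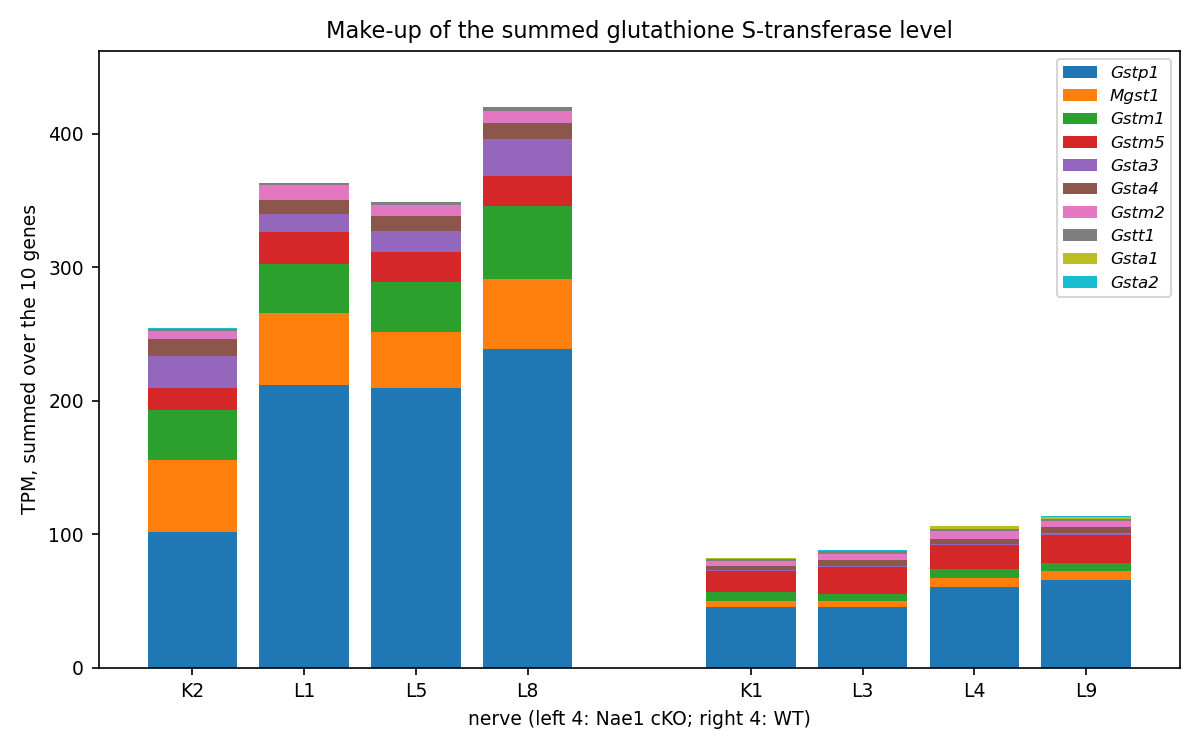
Summed TPM of the 10 genes in each nerve, with Nae1 cKO nerves (K2, L1, L5, L8) at left and controls (K1, L3, L4, L9) at right, and the share of each gene as a coloured part of the bar. Totals lie between 254 and 420 TPM in Nae1 cKO nerves and between 82.1 and 113 TPM in controls, with Gstp1 the largest part of each bar.

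TPM and CPM did not scale alike in all nerves. Over 14492 genes above 1 CPM in every nerve, the median ratio of TPM to CPM was 0.209, 0.403, 0.326 and 0.329 in Nae1 cKO nerves K2, L1, L5 and L8, against 0.244, 0.276, 0.305 and 0.304 in controls K1, L3, L4 and L9. K2 was therefore placed lower, relative to the other nerves, in TPM than in CPM. Its Gstp1 level was 102 TPM, against 209 to 239 TPM in the other Nae1 cKO nerves.

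Reads of close copies can be assigned to more than 1 gene, and this was checked in 2 ways. Stretches of 50 bases were compared between the GENCODE vM21 transcripts of the family. For Gsta3, Gsta4, Gstt1 and Mgst1 none was shared with another family gene compared. Gstm2 shared 0.655% of its stretches, Gstm1 8.88% (most of it with Gstm3) and Gstm5 9.44%, all with 4933431E20Rik, which overlaps it on the other strand. Gstp1 shared 33.7% with Gstp2, Gsta2 49.3% and Gsta1 90.5%, the largest part of the last with Gm3776 and Gsta2. The second check was whether the deposited expected counts were whole numbers, which they are for a gene whose reads were all assigned to it alone. Within 0.005, all 8 values were whole for Gsta3, Gsta4, Gstm1, Gstm2, Gstt1 and Mgst1, and none for Gstp1 and Gstm5. For Gsta1 2 and for Gsta2 6 of the 8 values were whole.

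Summing the copies before the fit gave estimates that depend less on how reads were divided. Gstp1, Gstp2 and Gstp3 together had a log2 fold change of 1.66 (SE 0.13, adjusted p = 3.28e-06, edgeR), near that of Gstp1 alone. Gstp-ps, with which Gstp1 shared 20.3% of its stretches, was not in this sum. The counts of both rows of Gstp1 and of Gstp2 with Gstp-ps summed to a whole number, within 0.025, in 0 of the 8 nerves. All 7 mu-class genes together had one of 1.22 (SE 0.13, adjusted p = 4.17e-05, edgeR). The 4 theta-class genes together had one of 0.28 (SE 0.18, adjusted p = 0.276, edgeR). The sum of Gsta1 and Gsta2 was still under the filter. The counts of Gstm5 and 4933431E20Rik summed to a whole number, within 0.025, in 6 of the 8 nerves. 4933431E20Rik did not pass either (log2 fold change -0.086, adjusted p = 0.642, edgeR), and where the strand setting is unknown the levels of the pair are uncertain.

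The pattern of Gstp1, the member with the smallest adjusted p, was most like that of Afap1l1, Fcrls, Slc19a2, Prkg2 and Cited1 over the 8 nerves, members aside. Pearson's r of log2(CPM + 0.5) was 0.997 for Afap1l1 and 0.991 for Cited1, the lowest of the 5. This is a description over nerves that share the difference between genotypes, not a test. Among the members, r with Gstp1 was 0.949 for Gstm1, 0.944 for Mgst1 and 0.942 for Gsta3, and 0.207 for Gstm5.

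Other glutathione transferases were divided. The list held 23 genes besides the members, of which 15 were tested, 5 rose and 2 fell, with a median log2 fold change of 0.27. Besides Gstm6 and Gstp2, the latter with reads divided with other rows, Gsto1, Ptges and Hpgds rose. Gsto1, an omega-class enzyme, averaged 9.65 ± 1.52 CPM in Nae1 cKO nerves and 5.08 ± 0.885 CPM in controls (SD, n = 4 each; log2 fold change 0.92, SE 0.17, adjusted p = 0.00175, edgeR). Ptges, a membrane-bound prostaglandin E synthase, rose by 0.71 on the log2 scale (SE 0.13, adjusted p = 0.00136, edgeR), and Hpgds, a prostaglandin D synthase of the sigma class, by 0.41 (SE 0.098, adjusted p = 0.00854, edgeR). Mgst3 and Gstk1, a kappa-class enzyme of mitochondria and peroxisomes, were the 2 that fell. Gstk1 averaged 7.29 ± 0.950 CPM in Nae1 cKO nerves and 10.8 ± 1.90 CPM in controls (SD, n = 4 each; log2 fold change -0.57, SE 0.16, adjusted p = 0.0183, edgeR). In CPM the groups overlapped for both, and in TPM for Gstk1 alone. Mgst3 was at 14.65 to 15.24 TPM in Nae1 cKO nerves and 19.8 to 24.29 TPM in controls. The calls of both genes were each lost under 10 of 22 alternative settings. For Gstk1 these included leaving out Nae1 cKO nerve L1 or L8 or control K1 or L9 (adjusted p 0.0514 to 0.0629, edgeR). Without controls K1 and L4 the call of Hpgds was lost too (adjusted p = 0.11). On the log2(TPM + 1) scale Ptges and Hpgds did not pass (adjusted p = 0.144 and 0.116, limma).

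**Figure D3:**
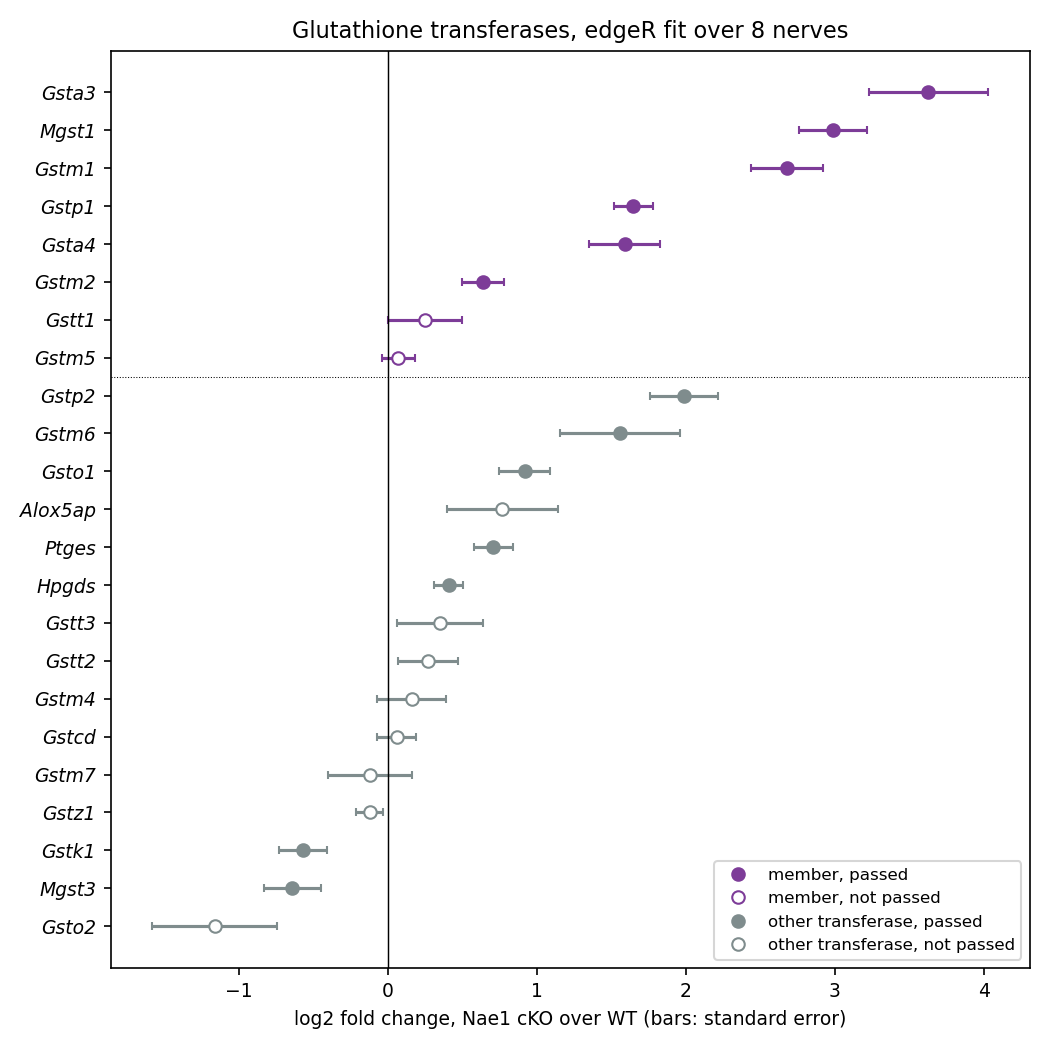
Log2 fold change, Nae1 cKO over WT, of the 8 members tested (top) and the 15 other transferases tested (below the dotted line), with standard errors. Filled points passed at an adjusted p under 0.05. Gsta3, Mgst1 and Gstm1 lie farthest to the right, while Gstm5 and Gstt1 are near 0.

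Genes that supply glutathione were described beside the transferases. Of 15, 14 were tested, 8 rose and 2 fell, with a median log2 fold change of 0.795. Slc7a11, which brings cystine into the cell, had a level of 86.7 ± 17.6 CPM in Nae1 cKO nerves and 1.63 ± 0.398 CPM in controls (SD, n = 4 each; log2 fold change 5.73, SE 0.20, adjusted p = 3.14e-08, edgeR). Gclc and Gclm, the catalytic and modifier subunits of the enzyme that limits glutathione synthesis, rose by 1.93 and 2.41 on the log2 scale (SE 0.083 and 0.13, adjusted p = 5.95e-08 and 2.25e-07, edgeR). Gsr, which returns oxidised glutathione to its reduced form, rose by 2.07 (SE 0.093, adjusted p = 6.49e-08, edgeR). Gss, which completes synthesis, decreased by 0.43 on the log2 scale (SE 0.11, adjusted p = 0.0149, edgeR), and Ggct, which breaks down gamma-glutamyl amino acids, decreased by 0.99 (SE 0.091, adjusted p = 1.01e-05, edgeR). The call of Gss was lost in 5 of 22 alternatives, among them when libraries were scaled by their totals (adjusted p = 0.101) and without controls K1 and L4 (adjusted p = 0.118). That of Ggct was lost on the log2(TPM + 1) scale (adjusted p = 0.0994, limma).

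Transporters and enzymes that act on the conjugates were less uniform. Of 17 genes, 12 were tested, 3 rose and 1 fell, with a median log2 fold change of 0.20. The 3 that rose are export pumps for conjugates. Abcc5, a further pump of the list, did not pass. It averaged 130 ± 9.06 CPM in Nae1 cKO nerves and 150 ± 7.21 CPM in controls (SD, n = 4 each; log2 fold change -0.21, adjusted p = 0.0594, edgeR). Abcc2 was under the filter. Abcc1 averaged 95.6 ± 14.2 CPM in Nae1 cKO nerves and 40.4 ± 4.43 CPM in controls (SD, n = 4 each; log2 fold change 1.24, SE 0.11, adjusted p = 1.02e-05, edgeR). Abcc4 rose by 1.36 and Abcc3 by 0.88 on the log2 scale (adjusted p = 1.22e-05 and 0.000623, edgeR). Ggt7, a member of the gamma-glutamyltransferase family, decreased by 1.52 (SE 0.19, adjusted p = 8.65e-05, edgeR).

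Other users of glutathione numbered 13, of which 12 were tested, 4 rose and 1 fell, with a median log2 fold change of 0.20. Esd, an S-formylglutathione hydrolase, rose by 1.67 on the log2 scale (SE 0.10, adjusted p = 4.73e-07, edgeR). The peroxidase family members Gpx7 and Gpx1 rose by 0.60 and 0.58 (adjusted p = 0.000156 and 0.00971, edgeR), and the glutaredoxin Glrx by 0.56 (adjusted p = 0.0265, edgeR). Hagh, a glyoxalase, decreased by 0.49 (SE 0.13, adjusted p = 0.0160, edgeR). The call of Glrx was lost without Nae1 cKO nerve L5 or L8 or control K1, L3 or L4 (adjusted p 0.0595 to 0.0817), that of Hagh without Nae1 cKO nerve L1 or control K1 (adjusted p = 0.0501 and 0.0515), and that of Gpx1 without controls K1 and L4 together (adjusted p = 0.0842). In all, Glrx lost its call in 8 and Hagh in 7 of 22 alternatives, and for Hagh these included scaling by library totals (log2 fold change -0.34, adjusted p = 0.055) and the FPKM and TPM scales (adjusted p 0.0782 to 0.456).

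Of 10 genes for NRF2, its regulators and its partners, all were tested, 3 rose and 2 fell, with a median log2 fold change of 0.105. The transcript of NRF2 itself, Nfe2l2, was lower in Nae1 cKO nerves, at 41.3, 60.7, 59.6 and 58.4 CPM in K2, L1, L5 and L8, against 82.6, 72.0, 91.7 and 88.1 CPM in controls K1, L3, L4 and L9 (log2 fold change -0.60, SE 0.12, adjusted p = 0.00337, edgeR). Its level fell while 6 of the transferases rose, and K2 was the lowest nerve. Rbx1 decreased by 0.33 (SE 0.089, adjusted p = 0.0153, edgeR). Maff and Mafg, small MAF partners, rose by 1.84 and 0.79 (adjusted p = 4.77e-05 and 0.000656, edgeR), and Bach1, a repressor of NRF2 targets, by 0.34 (SE 0.069, adjusted p = 0.00334, edgeR). Keap1 and Cul3 did not pass (log2 fold change 0.11 and -0.21, adjusted p = 0.445 and 0.0556, edgeR). The call of Rbx1 was lost in 6 of 22 alternatives. Its log2 fold change was -0.18 with scaling by library totals (adjusted p = 0.145) and -0.17 to -0.20 on the FPKM and TPM scales (adjusted p 0.148 to 0.684), and the call was also lost without control K1 (adjusted p = 0.0542) and without controls K1 and L4 (adjusted p = 0.0621). On the log2(TPM + 1) scale Nfe2l2 and Bach1 did not pass (adjusted p = 0.397 and 0.283, limma), and their calls were also lost without controls K1 and L4 together (adjusted p = 0.0525 and 0.0676). RNA levels do not report the amount or activity of these proteins.

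**Figure D4:**
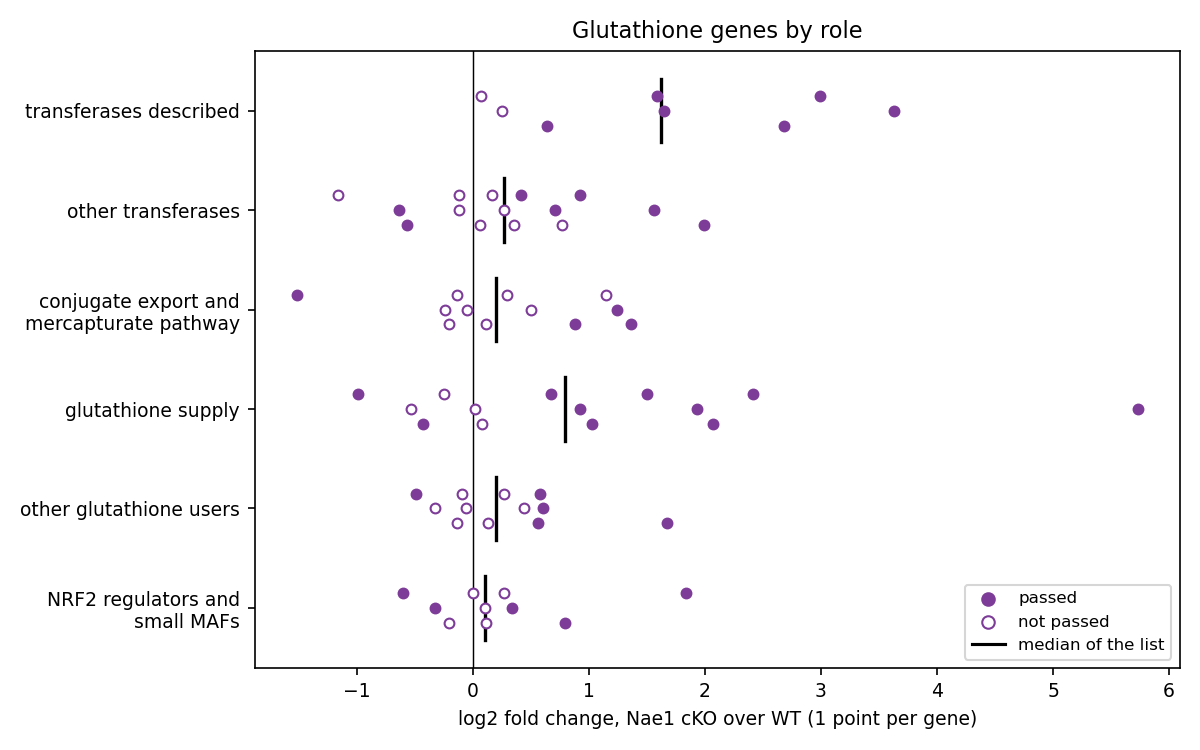
Log2 fold change, Nae1 cKO over WT, of the tested genes of 6 lists, 1 point per gene. Filled points passed at an adjusted p under 0.05. The black line is the median of the list, at 1.62 for the transferases described, 0.27 for other transferases and 0.795 for glutathione supply. The last list includes enzymes of NADPH supply and the pentose phosphate pathway.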

How the data were processed

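Nerves from 4 Nae1 cKO mice were compared with those from 4 controls, with groups taken from the sample labels. The deposited table of each nerve holds expected counts from RSEM (estimated numbers of fragments, not scaled and not always whole), together with TPM and FPKM as scaled by the authors. RSEM, STAR, FastQC 0.11.5 and GRCm38 appear in the submitters' processing notes, whereas the methods of the study name TopHat and Cuffdiff on mm10. The strand setting was not given in the sources used here, nor was the release of the annotation.

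Rounding turned the expected counts into whole numbers. Genes were filtered with filterByExpr by genotype, scaled by TMM and compared with the quasi-likelihood test of edgeR 4.0.16 (R 4.3.3) with robust estimation and no covariate. Benjamini-Hochberg adjustment ran over all 17090 genes tested. A gene passed at an adjusted p under 0.05, and rises over 2-fold were counted too. The standard error is the absolute log2 fold change divided by the square root of F. Gstp1 was counted once and tested on 1 of its 2 equal rows. Exact two-sided permutation tests used SciPy 1.17.1. DESeq2 1.42.0, limma 3.58.1, other scalings, filters and units (log2 of FPKM or TPM plus a pseudocount of 1, or 0.1 for FPKM), the sample-name letter, and fits without single nerves were alternatives. The fits were tested on simulated counts. No nerve name is shared between groups and the labels give no litter, so a pairing of nerves could not be read from them.

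The members and gene lists were chosen with earlier results of these data known. All members were described. From each other list the text names up to 4 passing genes with the smallest adjusted p, further genes where a count was 5 or fewer, other transferases in a member's genomic cluster, and the 5 genes most correlated with the member with the smallest adjusted p. Keap1, Cul3, Abcc2, Abcc5, Mgst2 and the NADPH and pentose phosphate enzymes were named in addition, after their values were seen. Coordinates came from GENCODE vM21, and promoter sequences from RefSeq on GRCm38.p6. Some genes are not reported here.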

Additional observations from a re-analysis of the deposited data

Results flagged for a closer look

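Among 36 genes, each checked in both groups, 4 values stood apart from the other 3 nerves of their group by more than Dixon's critical value for 4 samples. Chance flags about 1 in 20 groups. None of them belongs to a member of the family.

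Gstk1 was at 8.70 CPM in Nae1 cKO nerve L5, against 6.69 to 6.97 CPM in the other Nae1 cKO nerves. In K2, a Nae1 cKO nerve, Nfe2l2 stood at 41.3 CPM, while the remaining Nae1 cKO nerves held 58.4 to 60.7 CPM. Gsr was at 28.4 CPM in control L9, against 23.8 to 24.2 CPM in the other controls. Gpx7 was at 26.4 CPM in control L4, against 28.2 to 28.4 CPM in the other controls.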

How the results depend on the processing

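Over 22 alternatives, the 6 genes that rose kept their direction, and the only call lost was that of Gstm2 on the log2(TPM + 1) scale. Gstm5 was not called, and its log2 fold change turned to -0.022 in the nerves with the letter L and to -0.049 without controls K1 and L4 (an alternative chosen after seeing the data, as was adding Gm3776 and Gm10639 to the summed copies). With the mu-class copies summed, Gstm1, Gstm2 and Gstm5 share 1 value, so that 7 members counted as higher. Without a filter, 1 member, Gsta1, was lower. Nae1 missed the threshold on the log2(TPM + 1) scale (-0.44, adjusted p = 0.242, limma).

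Across all genes, 2411 rose and 2099 fell (53.5% higher). Scaling by library totals gave 3875 and 1255 (75.5% higher) and moved the median of all genes to 0.16, against which Gstm5 at 0.22 and Gstt1 at 0.40 are to be read. Limma gave 1032 lower on log2(FPKM + 1), 1025 lower on log2(FPKM + 0.1) and 76.4% higher on both, and on log2(TPM + 1) 1165 higher, 384 of them over 2-fold, and 412 lower (73.9% higher). Without controls K1 and L4 the counts were 1273 and 1129. The causes were not tested. Leaving out 1 nerve at a time gave 1939 to 2723 higher and 1644 to 2504 lower genes, and 6 members higher each time. No paired analysis was possible because no replicate number is shared between the groups and the labels do not name litters. With the letter of the name as a term, 2798 genes rose and 2458 fell, and 6 members were higher. Of 27 other named genes followed under the alternatives, none changed direction, and 56 of 593 values lost their call. Depth limits Gsta1 and Gsta2, with at most 18 expected counts in a nerve.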
